A study of Mus with 9 samples.

Results

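The 9 genes described here are the protein-coding and ribosomal RNA genes of the mouse mitochondrial genome that are not contained in a stretch of that genome with an annotated copy on chromosome 1. They are mt-Nd1, mt-Nd2, mt-Nd4, mt-Nd5 and mt-Nd6 (complex I), mt-Cytb (complex III), mt-Co1 (complex IV) and the rRNA genes mt-Rnr1 and mt-Rnr2. They were chosen by position and not by their levels, though earlier results of these data were known. They come out of 15 mRNA and rRNA genes and 37 genes in all on the mitochondrial genome, in a table of 54532 genes. All 9 passed the filter on low counts.

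Kidney RNA was sequenced in 9 libraries of male C57BL/6 mice, 3 in each of the groups 18 mo, 21 mo and 21 mo/O304. Every mouse had undergone unilateral nephrectomy at the age of 18 months, so no group stands for an unoperated kidney. The 18 mo mice were killed 1 week after surgery without injections, the 21 mo mice received saline into the peritoneum for 12 weeks, and the 21 mo/O304 mice received O304, a direct activator of the energy sensor AMPK, at 10 mg/kg/day by the same route for 12 weeks. Age, time since surgery and injections therefore differ together between 18 mo and the older groups and cannot be told apart. The labels do not state that the replicates are separate animals. If they are not, p-values measure only the spread between these libraries.

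Mitochondrial DNA encodes core subunits of the respiratory chain and of ATP synthase, together with the rRNAs and tRNAs of the mitochondrial ribosome. Both of its strands are copied from promoters in the control region into long precursors by the polymerase Polrmt, the precursors are cut at the tRNAs, and each released RNA then has its own lifetime. In the kidney the proximal tubule is especially rich in mitochondria, because solute reabsorption uses much ATP.

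Library totals ran from 15636378 to 18396725 counts on genes, and a single library held between 9405 and 690359 counts on any of the 9 genes, so counting error was at most 0.991% of a group mean. The SD between libraries was at least 7.73 times the counting error in 26 of 27 pairs of gene and group; the exception was mt-Nd4 at 18 mo, where the SD of 0.160% was below the counting error of 0.263%. The 21 mo libraries stood apart from each other, with a common biological coefficient of variation over all genes tested of 44.2%, against 18.1% at 18 mo and 20.6% in 21 mo/O304. Summed CPM (counts per 1e6 counts, with totals scaled between libraries by TMM) of 12 proximal tubule markers was 38474, 11913 and 2611 in 21 mo replicates 1, 2 and 3, against 40589 to 49317 at 18 mo and 45644 to 53661 in 21 mo/O304. Each of the 12 was detected, so the labelled tissue was borne out in every group, but in bulk RNA fewer cells of a type and less RNA per cell cannot be told apart. Summed CPM of 6 genes of injured tubule was 1553, 13936 and 16554 in the same 3 libraries, against 916 to 1017 at 18 mo and 980 to 1431 in 21 mo/O304. Markers of fibroblasts and pericytes (7 genes) summed to 135, 491 and 1192 CPM there, against 98.5 to 270 CPM in the 6 other libraries, and macrophage markers (7 genes) to 701, 1136 and 3432 CPM, against 275 to 466 CPM at 18 mo and 521 to 549 CPM in 21 mo/O304. With O304, 5 adipocyte markers summed to 56.9, 5.42 and 34.6 CPM, against 0.123 to 4.53 CPM in the 6 other libraries, and 4 markers of the distal convoluted tubule to 1160 to 1463 CPM, against 535 to 840 CPM at 21 mo and 829 to 1347 CPM at 18 mo. The part of these markers in the mitochondrial values below was not tested.

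Per length, the order of the 9 genes was nearly the same in the 3 groups. At 18 mo mt-Co1 had the highest FPKM (fragments per kilobase of gene and per 1e6 fragments, as deposited), at 19841 ± 391 (SD, n = 3), followed by mt-Cytb at 16806 ± 1024, mt-Nd1 at 12183 ± 657, mt-Nd2 at 7853 ± 399 and mt-Nd4 at 6105 ± 69.1. Each of these 5 was separated from the next by non-overlapping libraries. The rank of mt-Nd4 depends on the length used, as the copied stretch described below spans 63.6% of the gene. Dividing all its counts by the 502 bases outside gave a mean of 288183 counts per kilobase at 18 mo. By full length, mt-Cytb had 288661, mt-Nd1 209165 and mt-Nd2 134888. Counts from inside and outside the stretch were not separated. mt-Nd5 (FPKM 4337 ± 267) and mt-Nd6 (FPKM 4100 ± 574) overlapped each other, as did mt-Rnr1 (FPKM 618 ± 47.8) and mt-Rnr2 (FPKM 587 ± 76.6) at the bottom. How the libraries were depleted of rRNA or selected for mRNA is not given in the sources used here. The low rRNA level per length can therefore not be assigned to the libraries or to the cells. The rRNA comparisons and ratios below share this limit. In 21 mo/O304 mt-Nd6 stood above mt-Nd5 without overlap (FPKM 6009 ± 321 against 5315 ± 555). At 21 mo every neighbour in the order overlapped the next, apart from the gap between mt-Nd6 and the rRNAs.

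The comparison of 21 mo with 18 mo asks what changed over the 12 weeks of ageing, with time since surgery and saline injections included. None of the 9 genes differed between the group means beyond the spread. What set the 21 mo group apart was the distance between its own libraries: replicate 1 held more than every 18 mo library and replicate 3 less, for all 7 mRNAs and for mt-Rnr1. The highest 21 mo library held 1.86 times (mt-Rnr1) to 3.00 times (mt-Nd2) the CPM of the lowest, and in 9 of 9 genes the libraries stood in the order replicate 1, replicate 2, replicate 3.

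Among the complex I genes, mt-Nd1 (GRCm38, MT:2751-3707) encodes a membrane subunit next to the ubiquinone site. It held 12698, 12070 and 11293 CPM in the 18 mo libraries and 15608, 11429 and 8271 CPM in the 21 mo libraries. The 21 mo values lay on both sides of the 18 mo range, and the log2 fold change was −0.03 (SE 0.43, edgeR adjusted p = 0.970). mt-Nd2 (MT:3914-4951), which encodes a proton-pumping membrane subunit, held 8954, 8270 and 7991 CPM at 18 mo and 10630, 7266 and 3545 CPM at 21 mo. Again replicate 1 was above and replicate 3 far below all 18 mo libraries, with a log2 fold change of −0.23 (SE 0.46, edgeR adjusted p = 0.769).

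mt-Nd4 (MT:10167-11544), another pumping subunit, had the smallest spread of the 9 at 18 mo, within counting error, with 8674, 8656 and 8683 CPM. Its 21 mo libraries held 9999, 6984 and 3473 CPM. The highest 21 mo value was 2.88 times the lowest, against 1.00 times at 18 mo, and the log2 fold change was −0.35 (SE 0.45, edgeR adjusted p = 0.642). mt-Nd5 (MT:11742-13565), the most distal of the pumping subunits, held 7708, 8498 and 8245 CPM at 18 mo and 11396, 6932 and 4328 CPM at 21 mo. Those 21 mo libraries also bracketed the 18 mo range, with a log2 fold change of −0.11 (SE 0.44, edgeR adjusted p = 0.891).

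mt-Nd6 (MT:13552-14070) is the one protein gene on the opposite strand, and its end overlaps that of mt-Nd5. It held 1879, 2427 and 2268 CPM at 18 mo and 2910, 1965 and 1383 CPM at 21 mo. The groups overlapped, with a log2 fold change of −0.07 (SE 0.32, edgeR adjusted p = 0.903). Strandedness of the counting is not given in the sources used here, so reads from the other strand across mt-Nd6 could have been counted with it.

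mt-Cytb (MT:14145-15288) encodes cytochrome b, the only mitochondrial subunit of complex III. It held 21408, 19287 and 18783 CPM at 18 mo and 22560, 16262 and 8456 CPM at 21 mo. Replicate 1 was just above the 18 mo libraries and replicates 2 and 3 below them, and the log2 fold change was −0.33 (SE 0.53, edgeR adjusted p = 0.714). mt-Co1 (MT:5328-6872), the catalytic subunit of cytochrome c oxidase, held 31264, 31524 and 31999 CPM at 18 mo and 46181, 31468 and 23197 CPM at 21 mo. Here replicate 2 lay within the 18 mo range instead of below it, and the log2 fold change was 0.09 (SE 0.59, edgeR adjusted p = 0.934).

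The rRNAs had the highest log2 fold changes of the 9. mt-Rnr2 (MT:1094-2675), the large rRNA of the mitochondrial ribosome, held 852, 927 and 1090 CPM at 18 mo and 2038, 1654 and 983 CPM at 21 mo. It was the one gene of the 9 that replicate 3 did not carry below the 18 mo range, and its log2 fold change was 0.70 (SE 0.30, unadjusted p = 0.0423, edgeR adjusted p = 0.178). mt-Rnr1 (MT:70-1024), the small rRNA, held 583, 581 and 662 CPM at 18 mo and 1015, 933 and 546 CPM at 21 mo. Replicates 1 and 2 were above and replicate 3 below the 18 mo libraries, with a log2 fold change of 0.45 (SE 0.26, edgeR adjusted p = 0.304).

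Counted together, 0 of 9 genes passed an adjusted p of 0.05 in 21 mo against 18 mo, where 0.0189% of the 15902 genes tested passed. At an unadjusted p under 0.05 it was 1 of 9 (mt-Rnr2), with 26.1% of all genes. DESeq2 called 0 of 9, with 11.7% of its genes called. limma voom with sample quality weights, which gave 21 mo replicates 1 and 3 weights of 0.223 and 0.132 and replicate 2 a weight of 9.11, called mt-Rnr1 and mt-Rnr2 higher, with 52.9% of all genes called. The median log2 fold change was −0.07 over the 9 genes and 0.03 over all genes tested, with 6 genes below 0 and 3 above; without 21 mo replicate 3, mt-Nd1 (0.15), mt-Nd2 (0.07), mt-Nd5 (0.15) and mt-Nd6 (0.14) also came out above 0, and without 21 mo replicate 1 mt-Co1 came out below (−0.19). No gene of the 9 had all 21 mo libraries above the 18 mo libraries, which 13.5% of all genes had, or all below, which 15.3% had.

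The bracketing of the 18 mo range was more frequent among these genes than over the table. Replicate 1 exceeded every 18 mo library in 9 of 9 genes (31.1% of all genes tested), and replicate 3 lay under every 18 mo library in 8 of 9 (40.5%). Both held for 8 of 9, against 10.4% of all genes. These counts rest on the same 2 libraries, and 9 of 9 genes ranked the 21 mo libraries alike. The genes are therefore not separate observations, and the shares over all genes are given for scale only. Replicate 2 was below all 18 mo libraries in 4 of 9 and above them in 2 of 9, for which the shares over all genes were not counted. The SD within the group was 30.1% (mt-Rnr1) to 49.6% (mt-Nd2) of the mean at 21 mo, compared with 0.160% (mt-Nd4) to 12.9% (mt-Nd6) at 18 mo and 1.98% (mt-Nd1) to 18.1% (mt-Rnr1) in 21 mo/O304. Proximal tubule markers also had their lowest sum in replicate 3. In replicate 1 their sum was below the 18 mo range, while their mean log2 level relative to the 18 mo mean was −0.02, within the 18 mo range of −0.16 to 0.09.

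**Figure D1:**
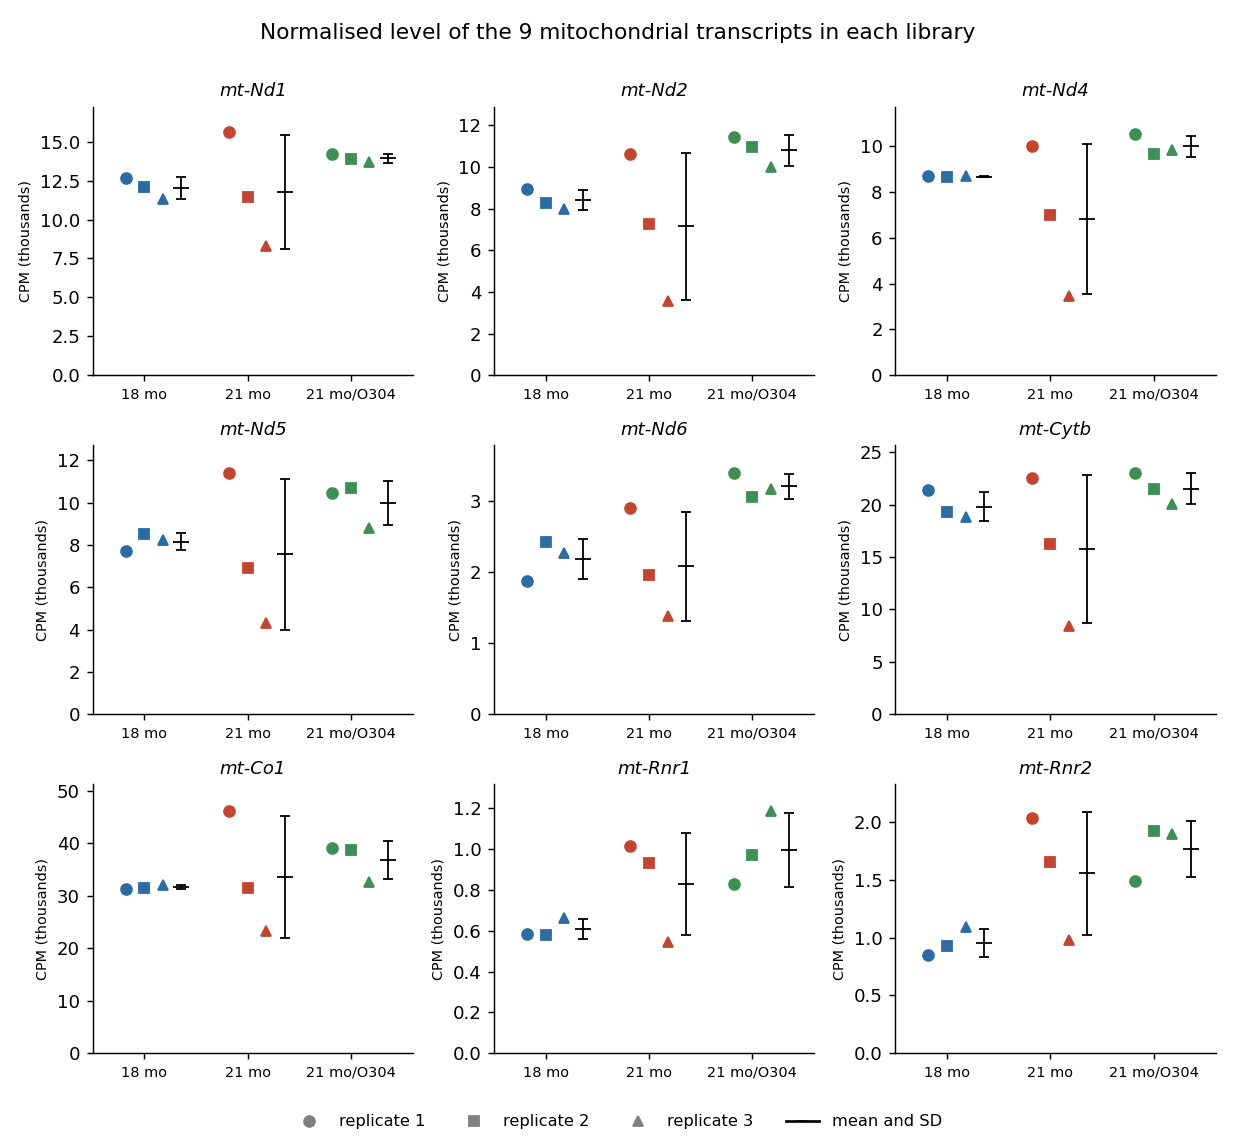
CPM divided by 1000 (vertical axis, from 0) of each of the 9 genes in the 18 mo, 21 mo and 21 mo/O304 libraries, with symbols for replicates 1 to 3 and a bar for the mean and SD of 3 libraries. The 21 mo libraries spread above and below the 18 mo libraries in 8 of 9 panels, while the 21 mo/O304 libraries lie close together.

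In the comparison of 21 mo/O304 with 21 mo, which asks what the AMPK activator did over the same 12 weeks, all 9 genes had a higher mean with O304, and again none passed the test. The largest differences were those of mt-Nd6, mt-Nd2 and mt-Nd4, all complex I genes, at log2 fold changes of 0.62, 0.60 and 0.55. The O304 libraries were close to each other, and for 7 of 9 genes all of them lay above 21 mo replicates 2 and 3. The share of all genes with that arrangement was not counted, so it cannot be read as particular to the 9.

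mt-Nd6 held 3405, 3065 and 3172 CPM in the O304 libraries, above 2910, 1965 and 1383 CPM in the 21 mo libraries. It was the only gene of the 9 without overlap (every O304 library was higher in 10.8% of all genes, and every one lower in 10.5%), with an SE of 0.32 and an edgeR adjusted p of 0.285. mt-Nd2 held 11446, 10970 and 9993 CPM with O304, where 21 mo replicate 1 at 10630 CPM lay within their range (SE 0.46, edgeR adjusted p = 0.452). For mt-Nd4, 21 mo replicate 1 at 9999 CPM likewise lay among the O304 values of 10505, 9640 and 9822 CPM (SE 0.45, edgeR adjusted p = 0.475).

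mt-Cytb held 23027, 21502 and 20095 CPM with O304, a log2 fold change of 0.45 (SE 0.53, edgeR adjusted p = 0.622). mt-Nd5 held 10463, 10711 and 8796 CPM, at 0.40 (SE 0.44, edgeR adjusted p = 0.594). For both, replicates 2 and 3 of the 21 mo group were below all O304 libraries and replicate 1 was not. mt-Nd1 held 14237, 13859 and 13700 CPM, the tightest O304 group of the 9, with a log2 fold change of 0.24 (SE 0.43, edgeR adjusted p = 0.750). mt-Co1 held 39088, 38700 and 32671 CPM, well under 21 mo replicate 1 at 46181 CPM, and its log2 fold change was only 0.13 (SE 0.59, edgeR adjusted p = 0.910). The rRNAs were 1488, 1922 and 1896 CPM for mt-Rnr2 (log2 fold change 0.18, SE 0.30, edgeR adjusted p = 0.727) and 831, 969 and 1188 CPM for mt-Rnr1 (0.26, SE 0.26, edgeR adjusted p = 0.567), and overlapped the 21 mo libraries.

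Of the 9 genes, 0 passed edgeR's adjusted p in this comparison, as did 0% of all genes tested, and 0 passed at an unadjusted p under 0.05, where 20.7% of all genes did. DESeq2 called 0 of 9 (5.20% of its genes). limma voom with quality weights called 5 of 9 higher with O304, namely mt-Nd2, mt-Nd4, mt-Nd5, mt-Nd6 and mt-Cytb, with 41.1% of all genes called. Without 21 mo replicate 1, edgeR called mt-Nd6 higher (log2 fold change 0.93, adjusted p = 0.0332), when it also called 23.1% of all genes. The median log2 fold change was 0.40 over the 9 genes and −0.02 over all genes tested. Without 21 mo replicate 3, the values of mt-Co1 (−0.07) and mt-Rnr2 (−0.05) were below 0.

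Against 18 mo, the O304 libraries held more of nearly every transcript in CPM. This comparison shares its O304 libraries with the one before and its 18 mo libraries with the first. In 8 of 9 genes, all but mt-Cytb, every 21 mo/O304 library was above every 18 mo library, against 13.2% of all genes tested. That count depends on the TMM scaling. As an unscaled share of all gene counts the 9 genes together overlapped, at 9.39% in O304 replicate 3 and 9.41% in 18 mo replicate 1. The largest differences were those of the rRNAs, at a log2 fold change of 0.89 for mt-Rnr2 (SE 0.30, edgeR adjusted p = 0.414) and 0.71 for mt-Rnr1 (SE 0.27, edgeR adjusted p = 0.459). mt-Nd6 followed at 0.55 (SE 0.32, edgeR adjusted p = 0.617), from a mean of 2191 ± 282 to 3214 ± 174 CPM (SD, n = 3 each). The other mRNAs had log2 fold changes from 0.12 (mt-Cytb) to 0.36 (mt-Nd2).

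None of the 9 passed the adjusted p (0% of all genes did), and 2 of 9, the rRNAs, passed at an unadjusted p under 0.05 (9.66% of all genes). DESeq2 called 0 of 9 (0.805% of its genes), and limma voom with quality weights called the 2 rRNAs higher (2.61% of all genes). These standard errors include the spread of the 21 mo libraries. Fitted to the 6 libraries alone, mt-Rnr2 had a log2 fold change of 0.88 (SE 0.14, edgeR adjusted p = 0.0554), mt-Rnr1 0.70 (SE 0.14, edgeR adjusted p = 0.0712) and mt-Nd6 0.54 (SE 0.13, edgeR adjusted p = 0.0905). With 3 libraries against 3, the exact permutation test cannot give a two-sided p under 0.1, and it gave that value for each of the 8 genes without overlap.

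**Figure D2:**
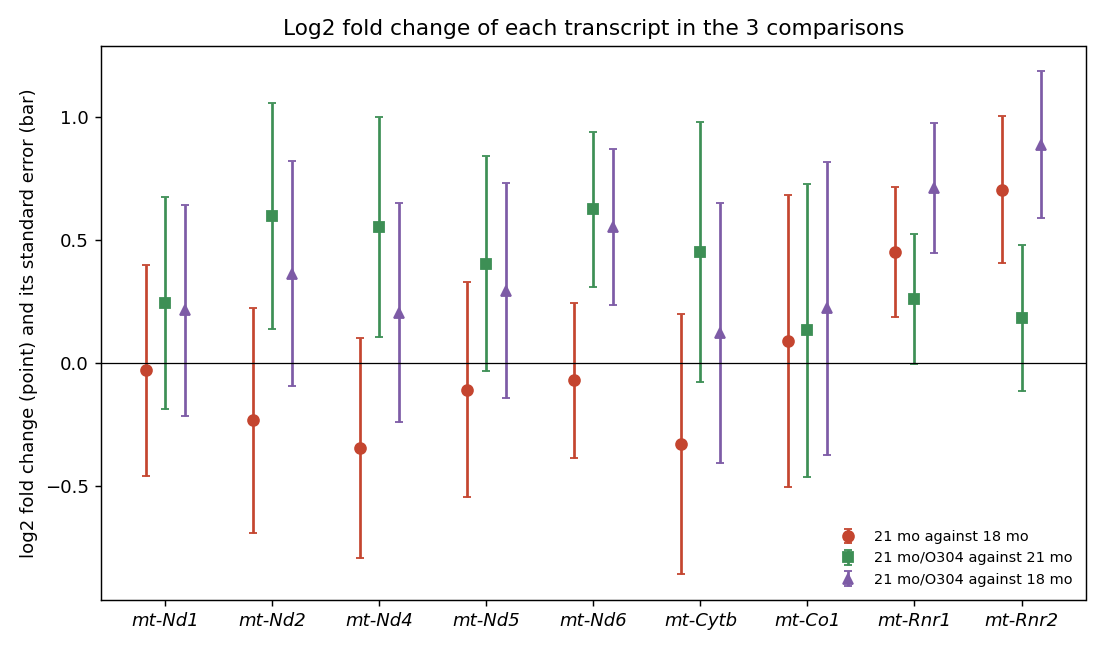
Log2 fold change (points) with its standard error (bars) from edgeR for each of the 9 genes in 3 comparisons, with circles for 21 mo against 18 mo, squares for 21 mo/O304 against 21 mo and triangles for 21 mo/O304 against 18 mo. The mRNA points of 21 mo against 18 mo lie between −0.35 and 0.09, the rRNAs at 0.45 and 0.70, and all points of both O304 comparisons are above 0.

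The make-up of the mitochondrial transcripts was taken within each library and is so independent of scaling between libraries. For some genes it separated 21 mo from the other groups where the levels did not. Between 21 mo/O304 and 18 mo it separated 4 of 9 genes, and the levels separated 8 of 9. Among the counts on the 9 genes, mt-Co1 made up 33.3%, 34.2% and 35.2% at 18 mo, 37.7%, 37.1% and 42.8% at 21 mo and 34.1%, 34.8% and 32.2% in 21 mo/O304. All 21 mo libraries were above those of both other groups. The share of mt-Cytb was 22.8%, 20.9% and 20.6% at 18 mo, 18.4%, 19.2% and 15.6% at 21 mo and 20.1%, 19.3% and 19.8% in 21 mo/O304. It was lower in every 21 mo library than in any library of the other groups.

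mt-Nd2 and mt-Nd4 went the same way as mt-Cytb. The share of mt-Nd2 was 9.52%, 8.97% and 8.78% at 18 mo, 8.69%, 8.56% and 6.54% at 21 mo and 9.997%, 9.85% and 9.86% in 21 mo/O304. For mt-Nd4 it was 9.23%, 9.38% and 9.54% at 18 mo, 8.17%, 8.23% and 6.41% at 21 mo and 9.18%, 8.66% and 9.69% in 21 mo/O304. In both genes the 21 mo libraries were below all others, and replicate 3 was the farthest out. In all, 6 of 9 shares did not overlap between 21 mo and 18 mo (mt-Co1, mt-Rnr1 and mt-Rnr2 higher, mt-Nd2, mt-Nd4 and mt-Cytb lower). For every gene tested, divided by the same counts, the share without overlap was 14.6%. Between 21 mo/O304 and 21 mo 5 of 9 did not overlap (mt-Nd2, mt-Nd4, mt-Nd6 and mt-Cytb higher with O304, mt-Co1 lower; 14.0% of all genes), and between 21 mo/O304 and 18 mo 4 of 9 (34.9%). The 9 shares sum to the whole, so these counts are not independent of each other. The 9 genes also make up the divisor and the other genes do not, so the percentages over all genes are not like for like. The 95% exact binomial interval of any of the shares was at most 0.0892 percentage points to either side, which covers counting error only.

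Ratios of single pairs have no common denominator, and the pairs printed here are part of a larger set that was computed. In that set mt-Nd4 per mt-Cytb, mt-Nd5 per mt-Cytb and mt-Nd6 per mt-Nd5 overlapped between 21 mo and 18 mo. The share of all gene pairs without overlap was not computed. Per count of mt-Cytb there were 1.46, 1.63 and 1.70 counts of mt-Co1 at 18 mo, 2.05, 1.94 and 2.74 at 21 mo and 1.70, 1.80 and 1.63 in 21 mo/O304. Per count of mt-Nd1, a neighbour on the same strand, there were 0.705, 0.685 and 0.708 counts of mt-Nd2 at 18 mo, 0.681, 0.636 and 0.429 at 21 mo and 0.804, 0.792 and 0.729 in 21 mo/O304. The latter ratio was lowest in the 21 mo group and highest with O304, with no overlap among the 3 groups.

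The rRNAs were set against the 6 mRNAs of their own strand. Counts of mt-Rnr1 and mt-Rnr2 per 100 counts of these mRNAs were 1.58, 1.71 and 2.01 at 18 mo, 2.62, 3.22 and 2.98 at 21 mo and 2.13, 2.74 and 3.24 in 21 mo/O304. Both older groups were above the 18 mo libraries without overlap, including 21 mo replicate 3, in which the mRNAs themselves were lowest. mt-Nd6, from the opposite strand, had 2.07, 2.75 and 2.61 counts per 100 at 18 mo, 2.50, 2.45 and 2.70 at 21 mo and 3.13, 2.91 and 3.34 in 21 mo/O304. Only the O304 libraries stood apart there, above all 6 others. These ratios are single values per library built from the 9 genes, and they are given as a description.

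**Figure D3:**
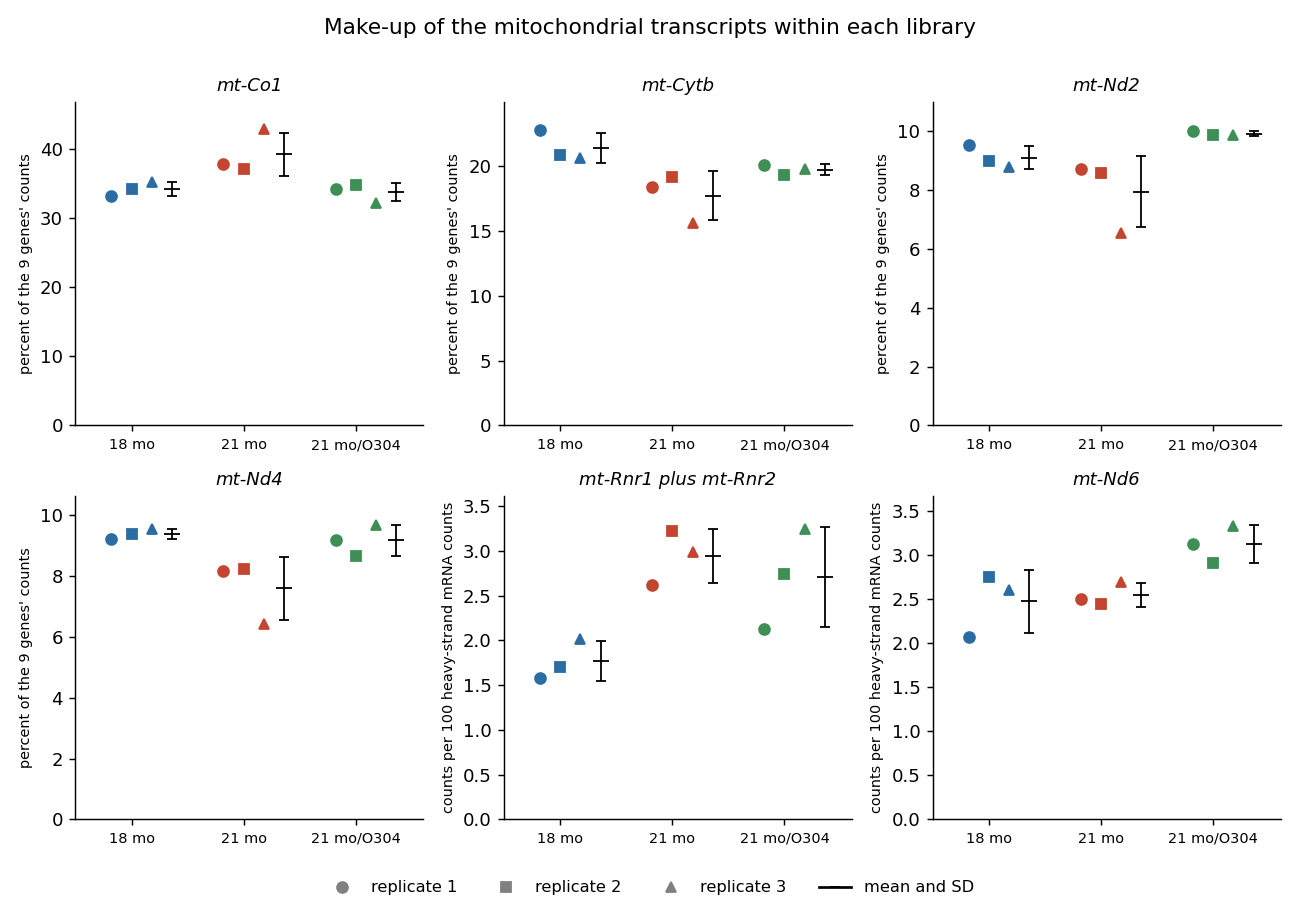
Shares of mt-Co1, mt-Cytb, mt-Nd2 and mt-Nd4 in the counts on the 9 genes (percent), and counts of the rRNAs and of mt-Nd6 per 100 counts on the 6 heavy-strand mRNAs, by library, with the mean and SD of 3 libraries; each vertical axis starts at 0. In the 21 mo panels mt-Co1 sits at 37.1% or above and mt-Nd4 at 8.23% or below, and the mt-Nd6 ratio of the O304 libraries starts at 2.91.

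As a share of all gene counts, the 9 genes took up 9.41%, 8.79% and 9.02% at 18 mo, 11.5%, 9.55% and 6.49% at 21 mo and 10.7%, 10.6% and 9.39% in 21 mo/O304. The groups overlapped, with means of 9.07% ± 0.313, 9.17% ± 2.51 and 10.2% ± 0.737 (SD, n = 3 each). The exact 95% interval of each share was at most 0.0156 percentage points to either side.

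mt-Co1 and mt-Nd4 are only in part outside the copied stretch. The copies on chromosome 1 (Gm29216 at 1:24615706-24616197 and Gm28439 at 1:24611535-24612410, both on the minus strand) span 31.8% of mt-Co1, leaving 1053 bases, and 63.6% of mt-Nd4, leaving 502 bases. The treatment of reads that fit both places is not given in the sources used here. Gm29216 held 72.9 to 178 CPM, which was 0.304% to 0.552% of the counts of mt-Co1 and its copy together, and Gm28439 held 39.5 to 164 CPM, or 1.07% to 1.85% of mt-Nd4 and its copy. Adding these counts to the genes, an analysis chosen after seeing the data, left 0 of 9 called in each comparison, where 0.0189%, 0% and 0% of all genes were called, so the count tells nothing particular about the 9. Reads discarded because they fit both places would leave no count and were not measured.

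The 6 mRNAs wholly inside the stretch (mt-Co2, mt-Atp8, mt-Atp6, mt-Co3, mt-Nd3 and mt-Nd4l) show how far the 2 parts of the genome differ in this table. Counts per kilobase over the 7 mRNAs outside were 21.1, 24.2 and 20.1 times those over the 6 inside at 18 mo, 35.7, 38.6 and 34.9 times at 21 mo and 37.2, 39.6 and 30.8 times in 21 mo/O304. The ratio was higher in both older groups without overlap. With the counts of the copies added to the 6, it was still 12.1, 13.5 and 11.8 times at 18 mo against 18.6, 18.9 and 18.4 times at 21 mo and 21.0, 18.7 and 14.9 times in 21 mo/O304. mt-Co3, a complex IV subunit like mt-Co1, held 556, 492 and 545 CPM at 18 mo, 295, 197 and 200 CPM at 21 mo and 232, 236 and 278 CPM in 21 mo/O304. That is a log2 fold change of −1.20 for 21 mo against 18 mo (SE 0.20, edgeR adjusted p = 0.0626), where mt-Co1 had 0.09. The 6 differed widely among themselves. The others were at −0.07 (mt-Nd3), −0.56 (mt-Co2), −0.82 (mt-Nd4l), −0.97 (mt-Atp6) and −3.26 (mt-Atp8). In 21 mo/O304 against 18 mo, 2 of the 6 were above 0 and 4 below, with mt-Nd3 at 0.53 and mt-Co3 at −1.09. Of the 6, 3 had every 21 mo library below every 18 mo library (15.3% of all genes), and 0 passed the adjusted p (0.0189% of all genes).

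**Figure D4:**
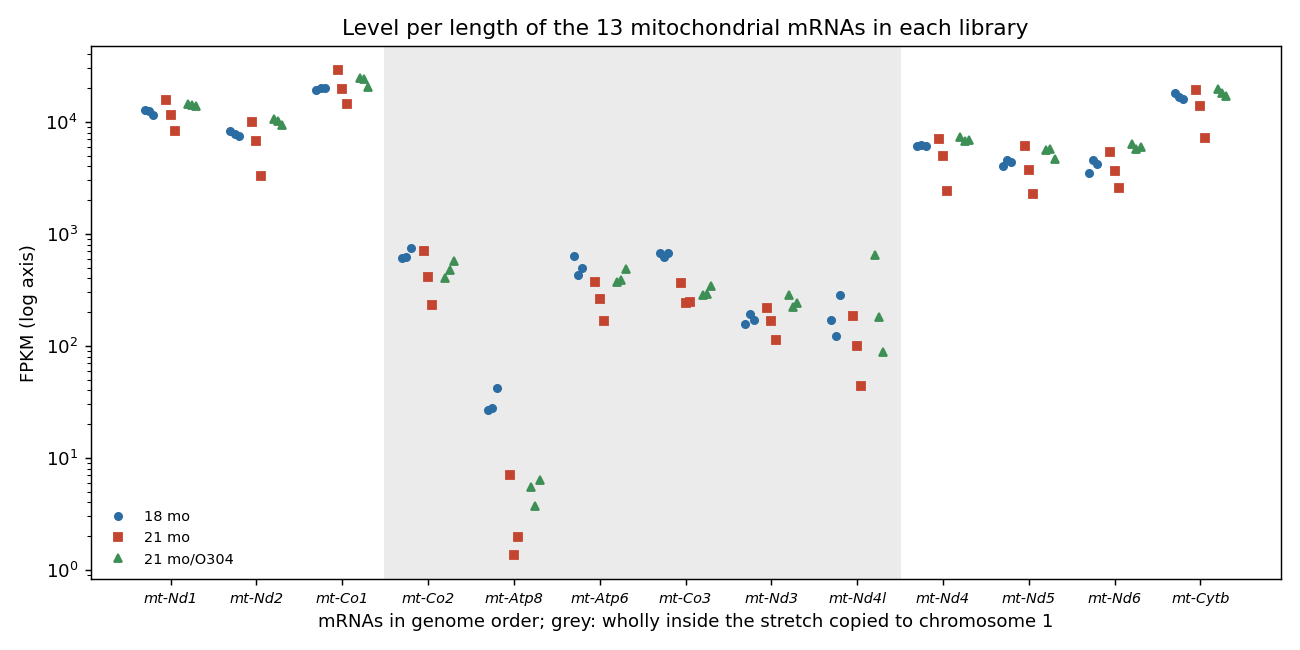
FPKM on a log axis of the 13 mitochondrial mRNAs in genome order, each library a point, with circles for 18 mo, squares for 21 mo and triangles for 21 mo/O304; grey marks the 6 genes wholly inside the copied stretch. The 7 outside lie between 2283 and 28959 FPKM and the 6 inside are lower throughout.

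The respiratory complexes are built from both genomes, and their nuclear genes were measured in the same libraries. Of 37 nuclear complex I subunits, all had a negative log2 fold change in 21 mo against 18 mo (47.3% of all genes tested did), with a median of −0.59, and 23 had every 21 mo library below every 18 mo library (15.3% of all genes). The accessory subunits Ndufs6 and Ndufa1 held 136 and 149 CPM on average at 18 mo and 52.0 and 61.7 CPM at 21 mo, log2 fold changes of −1.39 (SE 0.24) and −1.27 (SE 0.24), each with an edgeR adjusted p of 0.0626. For 9 nuclear complex III subunits the median was −0.54, with Uqcr11 at −1.38 (SE 0.21, edgeR adjusted p = 0.0626), beside −0.33 for mt-Cytb. For 15 nuclear complex IV subunits it was −0.46, with Cox5b, which binds zinc, at −1.12 (SE 0.20, edgeR adjusted p = 0.0626), beside 0.09 for mt-Co1. The 15 complex V subunits had a median of −0.43 and the 4 subunits of complex II, the complex with no mitochondrial gene, one of −0.52. In none of these lists did a gene pass the adjusted p.

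With O304 against 21 mo, the medians were 0.38 for complex I, 0.40 for complex III, 0.33 for complex IV, 0.28 for complex V and 0.49 for complex II, beside 0.40 for the 9 mitochondrial genes, and 0 genes passed (0% of all genes). Against 18 mo, O304 left the nuclear subunits of complexes I, III, IV and V at medians of −0.23, −0.16, −0.22 and −0.16, with 20 of the 37 complex I genes below 18 mo in every library (13.3% of all genes). The mean log2 CPM of the 7 mRNAs minus that of the nuclear subunits of complexes I, III and IV was 5.95, 6.02 and 6.06 at 18 mo, 6.66, 6.54 and 6.00 at 21 mo and 6.65, 6.66 and 6.32 in 21 mo/O304. This difference was larger in all O304 libraries, and in 21 mo replicates 1 and 2, than in any 18 mo library. In 21 mo replicate 3 it was within the 18 mo range.

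**Figure D5:**
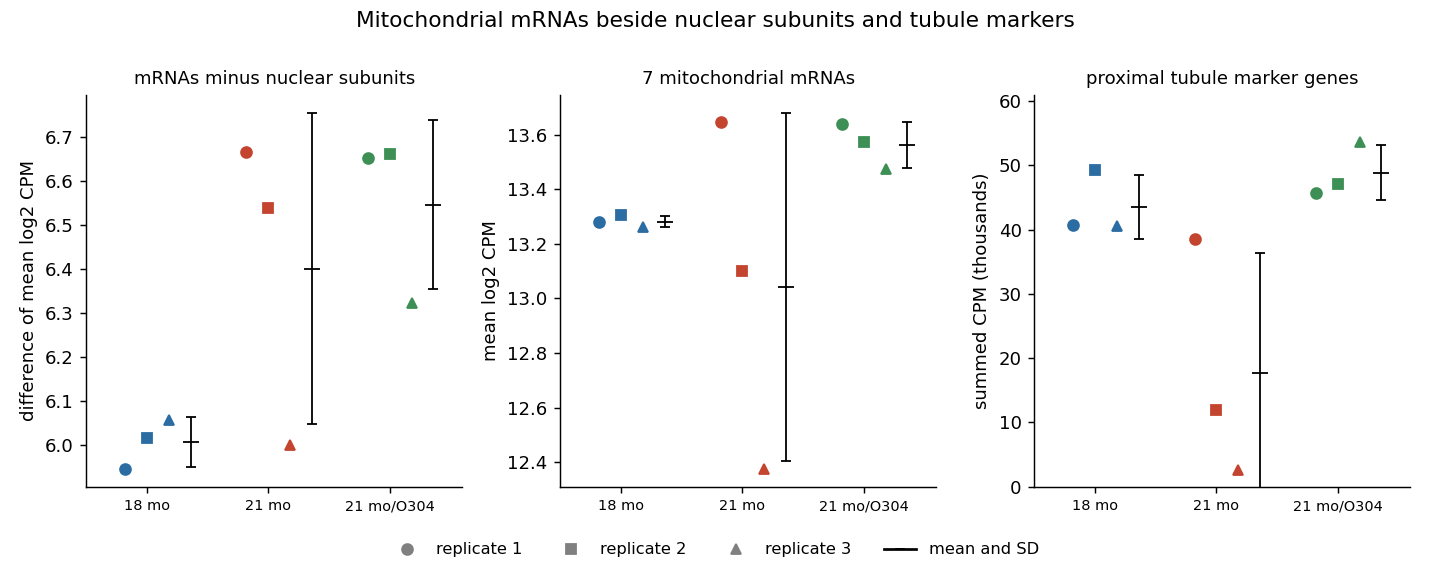
Mean log2 CPM of the 7 mitochondrial mRNAs minus that of the nuclear subunits of complexes I, III and IV (left), the mean log2 CPM of the 7 mRNAs (middle) and the summed CPM of 12 proximal tubule markers, divided by 1000 (right, axis from 0), by library with the mean and SD of 3 libraries; the SD bar of the markers at 21 mo runs past 0. The differences of the O304 libraries start at 6.32, above the highest 18 mo value of 6.06, and 21 mo replicate 3 has the lowest marker sum, 2611 CPM.

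Genes that make and process mitochondrial RNA were measured in the same libraries. Of 10 genes for transcription of mitochondrial DNA, the median log2 fold change was −0.07 in 21 mo against 18 mo, 0.32 in 21 mo/O304 against 21 mo and 0.21 in 21 mo/O304 against 18 mo. Polrmt, the polymerase, held 47.2, 45.0 and 44.0 CPM at 18 mo, 42.9, 32.5 and 25.9 CPM at 21 mo and 40.1, 35.8 and 30.8 CPM in 21 mo/O304. Both older groups were below the 18 mo libraries without overlap: the log2 fold change was −0.43 at 21 mo (SE 0.18, edgeR adjusted p = 0.177), and the difference of O304 from 18 mo was −0.35 (SE 0.18, edgeR adjusted p = 0.573). Tefm, the elongation factor, held 15.9, 18.7 and 13.6 CPM at 18 mo, 13.5, 10.4 and 10.4 CPM at 21 mo and 16.2, 17.5 and 21.4 CPM in 21 mo/O304. It was lower at 21 mo than in both other groups without overlap, with a log2 fold change of 0.68 for O304 against 21 mo (SE 0.19, edgeR adjusted p = 0.175). Tfam, which packages the genome and opens its promoters, averaged 54.5, 47.7 and 59.0 CPM in the 18 mo, 21 mo and 21 mo/O304 groups, and Tfb2m, its partner at the promoter, 35.9, 31.6 and 44.3 CPM. For neither did 21 mo differ beyond the spread (edgeR adjusted p = 0.503 and 0.631).

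In 13 genes for replication and maintenance the medians were −0.14, 0.25 and 0.00 in the same 3 comparisons. Twnk, the replicative helicase, held 29.3, 31.1 and 30.5 CPM at 18 mo, 24.6, 26.1 and 14.0 CPM at 21 mo and 39.1, 37.1 and 31.7 CPM in 21 mo/O304, in 3 ranges that did not overlap (0.74 for O304 against 21 mo, SE 0.21, edgeR adjusted p = 0.175). Exog, a mitochondrial nuclease, went the other way, with 2.91, 2.34 and 3.17 CPM at 18 mo, 5.69, 4.49 and 4.44 CPM at 21 mo and 2.85, 3.28 and 2.99 CPM in 21 mo/O304. All 21 mo libraries were above the others, at 0.79 against 18 mo (SE 0.24, edgeR adjusted p = 0.0975) and −0.68 for O304 against 21 mo (SE 0.24, edgeR adjusted p = 0.192). The list of 29 genes for RNA processing and decay had medians of −0.17, 0.18 and 0.04, with 24 of 29 negative (47.3% of all genes) and 7 below in every library (15.3% of all genes) in 21 mo against 18 mo. Lrpprc and Slirp bind and stabilise the mitochondrial mRNAs. Lrpprc averaged 120.0 CPM at 18 mo, 101 CPM at 21 mo and 131 CPM in 21 mo/O304, and its 55.4 CPM in 21 mo replicate 3 was the lowest of the 9 libraries. Slirp was low, at 0.852 to 3.18 CPM, with a log2 fold change of −1.03 for 21 mo against 18 mo (SE 0.50, edgeR adjusted p = 0.224).

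Of 9 regulators of nuclear mitochondrial genes, with medians of −0.01, 0.07 and 0.06, Esrra, a nuclear receptor that drives genes of oxidative metabolism, was the farthest from 0 in 21 mo against 18 mo. It held 216, 234 and 214 CPM at 18 mo, 123, 91.5 and 70.0 CPM at 21 mo and 144, 136 and 139 CPM in 21 mo/O304. Each O304 library lay between the 2 other groups (log2 fold change −1.22 for 21 mo against 18 mo, SE 0.19, edgeR adjusted p = 0.0626). In O304 against 21 mo Esrra was at 0.56 and Ppargc1b, a coactivator of the same receptors, was farther from 0 at 0.73 (SE 0.28, edgeR adjusted p = 0.201). Among 10 markers of mitochondrial mass the medians were −0.34, 0.17 and 0.02, and the matrix chaperone Hspd1 averaged 560, 408 and 780 CPM in the 18 mo, 21 mo and 21 mo/O304 groups. Across all these lists 0 genes passed the adjusted p in any comparison.

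Of the 22 mitochondrial tRNA genes, 12 entered the test and 6 had 3 counts or fewer in every library. In 21 mo against 18 mo 7 of the 12 had a positive log2 fold change and 5 a negative one, 3 were higher in every 21 mo library (13.5% of all genes) and 0 passed the adjusted p. mt-Tp, at 97.8 to 162 CPM the most counted of them, was at −0.28 (SE 0.19, edgeR adjusted p = 0.385), and mt-Tl2, lowest in 21 mo replicate 3, was at −1.36 (SE 0.53, edgeR adjusted p = 0.152). mt-Tn and mt-Tc lie between mt-Nd2 and mt-Co1 on the opposite strand. mt-Tn held 10.03, 13.7 and 16.5 CPM at 18 mo, 37.6, 22.7 and 82.2 CPM at 21 mo and 54.6, 50.003 and 43.3 CPM in 21 mo/O304, and mt-Tc 9.10, 16.8 and 20.4 CPM, 43.1, 25.4 and 73.9 CPM and 58.3, 50.4 and 44.1 CPM. Both older groups were above 18 mo, and 21 mo replicate 3, the lowest library for the mRNAs, was the highest for this pair, which was chosen for its values. The log2 fold changes of 21 mo against 18 mo were 1.83 (SE 0.42, edgeR adjusted p = 0.0697) and 1.62 (SE 0.40, edgeR adjusted p = 0.0750). In O304 against 21 mo they were 0.05 and 0.10. All 12 tested tRNA genes were positive there (51.8% of all genes were negative), and 6 were higher in every library (10.8%). For O304 against 18 mo, 10 were positive (49.6% of all genes were negative) and 7 higher in every library (13.2%). In both comparisons 0 of the 12 passed the adjusted p (0% of all genes).

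Among 13903 nuclear protein-coding genes, those whose log2 CPM was most like the mean of the 7 mRNAs over the 9 libraries were Tinag (Pearson r = 0.993), Cldn2 (0.993), Rrm2b (0.992), Xpot (0.991) and Slc35a3 (0.990). These are descriptions over 9 points that share their libraries and scaling, and 21 mo replicate 3 is far from the others. Without it, the values were 0.958 to 0.985. Cldn2, a cation channel of the proximal tubule's tight junctions, held 500, 559 and 528 CPM at 18 mo, 750, 483 and 275 CPM at 21 mo and 730, 660 and 630 CPM in 21 mo/O304. Rrm2b, a ribonucleotide reductase subunit that supplies nucleotides for mitochondrial DNA, held 37.0, 39.0 and 37.3 CPM, 45.1, 32.2 and 22.3 CPM and 44.3, 46.0 and 41.5 CPM. As in the mean of the 7 mRNAs, the 21 mo libraries lay on both sides of the 18 mo libraries and the O304 libraries above them. That likeness follows from how these genes were chosen.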

How the data were processed

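Kidney RNA libraries (NEBNext Ultra kit, 1 per sample, 3 per group) were analysed from the deposited tables. Per the submitters' processing notes, the authors aligned reads to GRCm38 (mm10) with HISAT2 2.0.5 and counted them per gene with featureCounts 1.5.0-p3. The deposited values were raw counts per gene and FPKM, which the authors scaled to a library size that differed from the count total (the total was 80.3% to 105% of it). Strandedness, treatment of multimapping reads and removal of rRNA are not given in the sources used here. The authors' DESeq2 1.20.0 comparison columns (fold changes and p-values) were not used.

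Genes with enough counts (filterByExpr, minimum 10, total 15) entered edgeR 4.0.16 (R 4.3.3): TMM scaling, 3 group means over all 9 libraries, the quasi-likelihood test with 6 residual degrees of freedom and Benjamini-Hochberg adjustment over 15902 genes at 0.05. The script was tested on simulated counts. CPM are counts per 1e6 of the TMM-scaled total, on which 1 count is worth 0.0458 to 0.0669 CPM. SE is the absolute log2 fold change divided by the square root of F. For single genes a two-sided exact permutation p was also computed. Correlations used log2 CPM with a prior count of 2.

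Alternatives were DESeq2 1.42.0, limma 3.58.1 (voom with sample quality weights, and limma-trend on log2(FPKM + 1) and log2(FPKM + 0.1) at a mean FPKM of at least 0.5), other scalings, no filter, 6 libraries only, a replicate block and leaving out each library. The members and gene lists were chosen with earlier results of these data known. Text names all 9 genes, the 6 mRNAs inside the copied stretch, genes among the 3 with the smallest p in each pathway list, Polrmt, Tfam, Tfb2m, Lrpprc, Slirp and the 5 nuclear genes most like the mRNAs. mt-Tn, mt-Tc, mt-Tp and mt-Tl2 were chosen after their values were seen.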

Additional observations from a re-analysis of the deposited data

How the results depend on the processing

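With 3 libraries per group, these comparisons are limited by the spread between libraries, which exceeded counting error in 26 of 27 pairs of gene and group. Across all results and alternatives, 1323 values kept direction and side of the threshold, 18 moved, 20 turned direction and 10 passed the threshold where the value reported did not. Under limma voom with quality weights 2, 5 and 2 of the 9 genes passed in 21 mo against 18 mo, O304 against 21 mo and O304 against 18 mo, and mt-Co1 was −0.00377 in the first. Upper-quartile scaling put mt-Nd1 at 0.00100 there, and without mt-Co1 and mt-Nd4 the share of gene counts differed by −0.213 percentage points. The cause of these was not tested.

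Leaving out 1 library at a time, log2 fold changes of 21 mo against 18 mo ran from −0.27 to 0.15 (mt-Nd1), −0.62 to 0.074 (mt-Nd2), −0.52 to 0.15 (mt-Nd5), −0.37 to 0.14 (mt-Nd6) and −0.19 to 0.28 (mt-Co1). The share of gene counts ran from −1.05 to 1.44 points, mt-Nd6 against the other mRNAs from −0.072 to 0.13 and the mean mRNA level from −0.54 to 0.093 (log2). List medians ran from −0.18 to −0.041 (transcription), −0.46 to −0.073 (replication), −0.82 to −0.49 (complex I), −0.88 to −0.35 (complex III), −0.66 to −0.39 (complex IV), −0.87 to −0.27 (complex II) and −1.34 to −0.60 (6 copied mRNAs). The low ends came without 21 mo replicate 1 for each of these medians.

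For O304 against 21 mo, 0 to 1 genes passed (mt-Nd6 without 21 mo replicate 1). mt-Co1 ran from −0.069 to 0.42, mt-Rnr2 from −0.053 to 0.41, the share of gene counts from −0.272 to 2.22 points, rRNA against mRNA from −0.28 to 0.025 and mRNA against nuclear subunits from −0.056 to 0.28 (log2). List medians ran from 0.21 to 0.41 (transcription), 0.16 to 0.48 (replication), −0.018 to 0.26 (regulators), 0.18 to 0.65 (complex III), 0.21 to 0.51 (complex IV), 0.17 to 0.49 (complex V) and 0.27 to 0.85 (complex II).

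Over all genes, 3 passed in 21 mo against 18 mo, against 2023 by DESeq2, 8409 by voom, 576 without a filter, 4186 without 21 mo replicate 1, 130 without 21 mo replicate 3 and 0 to 5 without any 1 of the other libraries. For O304 against 21 mo 0 passed, against 896, 6528, 17 and 3808 under the first 4 of these. For O304 against 18 mo 0 passed, against 118 by DESeq2, 415 by voom, 22 in the 6 libraries alone and 12 without 21 mo replicate 3.

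Same-numbered libraries were not treated as pairs in the main fit. The correlation of their deviations from the group means ran from −0.130 to 0.175. For differently numbered libraries it ran from −0.263 to 0.202. These ranges alone do not settle whether the libraries were paired. With a replicate block 0 of the 9 genes and 0 of all genes passed in each comparison; mt-Rnr2 was 0.69 in 21 mo against 18 mo and mt-Nd6 0.66 in O304 against 21 mo.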
